A study of Mus musculus with 9 samples.

Results

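The genes described here are the chemokines, cytokines and cytokine receptors of the whole mouse eye. They were taken as every gene whose deposited symbol begins with Ccl, Cxcl, Cx3cl, Ccr, Cxcr, Il followed by a digit, Tnfrsf or Tnfsf, which gave 57 of the 13089 genes listed. They comprise 7 CC chemokines, 4 CXC and CX3C chemokines, 2 chemokine receptors, 10 interleukins, 19 interleukin receptors and associated proteins, 4 ligands of the tumour necrosis factor (TNF) superfamily and 11 receptors of the TNF receptor superfamily. Poly(A) RNA of whole eyes was sequenced from mice of the inbred strains A/J, BALB/c and also C57BL/6J, 3 backgrounds that the design describes as unlike in how fast their retinas degenerate. All mice were wild-type females of 4 weeks, and each strain had 3 libraries, every one made from RNA pooled from 5 mice. C57BL/6J mice are pigmented, whereas the other strains are albino. Whether a strain's 3 libraries were made from separate pools is not stated, so each p-value reflects the library-to-library spread, and this may be technical.

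Chemokines are small secreted proteins that draw leukocytes along a gradient by binding G protein-coupled receptors. Interleukins are secreted messengers of immune and epithelial cells, and many of their receptors pair a ligand-specific chain with a shared signalling chain, which gives the cell a way to respond to several ligands through JAK and STAT proteins. TNF superfamily ligands and receptors signal through adaptor proteins to NF-kB and, for receptors with a death domain, to cell death. In the eye, fractalkine from neurons restrains microglia, interleukin 34 sustains microglia, and the surface epithelium stores members of the interleukin-1 family. In whole-eye RNA, fewer cells of a type and less RNA per cell cannot be told apart.

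Values are RPKM, reads scaled to transcript length and to the mapped reads of the library, and read depth is unknown. Means are given ± SD over 3 libraries of a strain. Log2 changes are on the log2(scaled RPKM + 0.5) scale, on which changes of low genes come out too small, and their error is the standard error (SE). A gene was called at a limma adjusted p under 0.05 over the 12920 genes tested. Some libraries stood apart within their strain. Across 12695 genes with a known GC content, a gene's deviation from its mean correlated with GC content at -0.65 and -0.72 (Spearman) in A/J 1 and A/J 2, against 0.46 in A/J 3. The range over the other 6 libraries was -0.3 to 0.56. The summed RPKM of the 57 members was 324.55 to 347.42 for A/J, 331.24 to 346.66 for BALB/c and 446.42, 394.71 and 534.97 for C57BL/6J 1, 2 and 3. Markers of the tissue were present throughout: the lens gene Cryaa was at 18390.93 RPKM or more and the corneal keratin gene Krt12 at 1632 RPKM or more in every library. Their levels were not equal, and summed lens markers differed between strains, as given with the other cell markers below.

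Most of these genes were low in whole eye. The median of the members' means over 9 libraries was 2.5 RPKM, against 9.27 RPKM for all listed genes. A mean of 10 RPKM or more was reached by 11 members, 23 had a mean from 2 up to 10 RPKM, and 23 were under 2 RPKM. Tnfsf12, which encodes the TNF ligand TWEAK, had the highest mean at 55 RPKM, followed by the interleukin 11 receptor chain Il11ra1 (26.3), the epithelial chemokine Cxcl14 (26.1), the TNF receptor Tnfrsf1a (23.5), fractalkine Cx3cl1 (21.6) and the alarmin Il33 (20.5). No member was listed at 0 in any library.

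**Figure D1:**
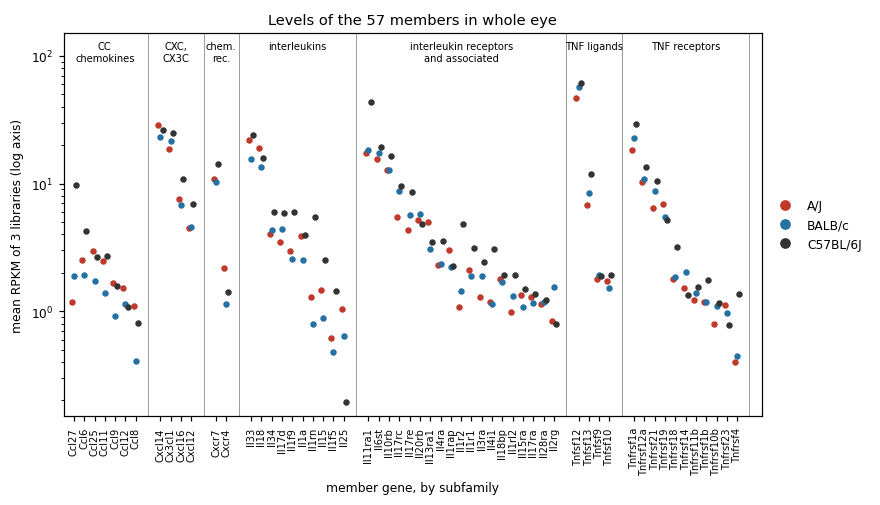
Mean RPKM of 3 libraries (log axis) for each of the 57 members and each strain, ordered by subfamily and by mean level. Levels span from 0.193 RPKM for Il25 in C57BL/6J to 60.9 RPKM for Tnfsf12 in C57BL/6J, and Ccl27 and Il1r2 show a C57BL/6J point well above the other strains.

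Of the 57 members, 54 reached 1 RPKM in at least 3 libraries and were tested, and Il25, Il1f5 and Tnfrsf4 were not. A/J eyes differed from C57BL/6J eyes in 5 members. The skin-type chemokine Ccl27, the decoy interleukin-1 receptor Il1r2 and the TNF family receptors Tnfrsf1a and Tnfrsf21 were lower in A/J, and the chemokine receptor Cxcr4 was higher. These 5 were 9.26% of the 54 members tested, against 2.69% of all genes tested. By direction, 4 members (7.41%) were lower, against 1.62% of all genes, and 1 (1.85%) was higher, against 1.08%. The median log2 change of the members was -0.24, against -0.01 for all genes, and 35 of 54 members were below 0. In deposited RPKM, all 3 A/J libraries lay below all 3 C57BL/6J libraries for 17 members (31.5%), against 11% of all genes, and above them for 2 members (3.7%), against 5.26%. After scaling by size factors, as in the test, Cxcl12, Il10rb and Il6st overlapped, which left 14 members below (25.9%), against 7.93% of all genes, and 2 above (3.7%), against 8.47%. At an unadjusted p under 0.05 there were 19 members (35.2%), against 17.5% of all genes. With A/J 3 left out the call count was 16 members (29.6%), against 28.3% of all genes. With any one of the other libraries left out it was 1 to 3 (1.85% to 5.56%), against 1.23% to 2.51% of all genes.

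BALB/c eyes differed from C57BL/6J eyes in 2 members, Ccl27 and the interleukin Il15, both lower in BALB/c. That is 3.7% of members, against 3.09% of all genes, a share near the background. For lower calls alone it was 3.7% of members against 1.15% of all genes, and no member was called higher, against 1.93%. The members' median log2 change was -0.17, against -0.01 for all genes. In deposited RPKM, BALB/c libraries lay below all C57BL/6J libraries for 17 members (31.5%), but so did 27.4% of all genes, and above them for 1 member (1.85%), against 6% of all genes. After scaling these were 13 members (24.1%), against 11.7% of all genes, and 4 members (7.41%), against 13.4%. The members that then overlapped were Ccl9, Cxcr4, Il33 and Tnfrsf21. At an unadjusted p under 0.05 there were 12 members (22.2%), against 13.8% of all genes. The count of calls was 4 with A/J 3 left out (7.41%, against 4.95% of all genes) and 3 with A/J 2 left out (5.56%, against 2.58%). It was 1 (Ccl27) with any other library left out (1.85%, against 1.28% to 3.3%). Both comparisons use the same C57BL/6J libraries.

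A/J and BALB/c, the albino strains, differed in 1 member, Cxcr4, which was higher in A/J. This was 1.85% of members, against 2.48% of all genes, or 0.573% for higher calls alone. No member was called lower, against 1.9% of all genes, and 8 members (14.8%) were under an unadjusted p of 0.05, against 20.9%. The members' median log2 change was -0.08, against -0.01 for all genes. In deposited RPKM, libraries of A/J lay above all BALB/c libraries for 8 members (14.8%), against 23.3% of all genes, and below them for 4 members (7.41%), against 9.78%. After scaling these were 7 members (13%), against 15.6% of all genes, and 9 members (16.7%), against 13.6%. Statements on single members, that libraries overlapped or did not, rest on deposited RPKM unless scaling is named. With 1 library left out, 16 members (29.6%) were called without A/J 3, when 34.7% of all genes were, and 2 (3.7%) without C57BL/6J 3, when 4.69% were. There were 0 without A/J 1 or any BALB/c library, against 0.82% to 1.28% of all genes. Tested jointly for a difference anywhere among the strains (limma F test), 5 members were called, which is 9.26% against 4.47% of all genes. They were Ccl27 (adjusted p = 0.000599), Il1r2 (0.0238), Cxcr4 (0.0264), Tnfrsf21 (0.0469) and Tnfrsf1a (0.048). Il15 was at 0.0669 in that test, and without A/J 3 it called 23 members (42.6%), against 33.1% of all genes.

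**Figure D2:**
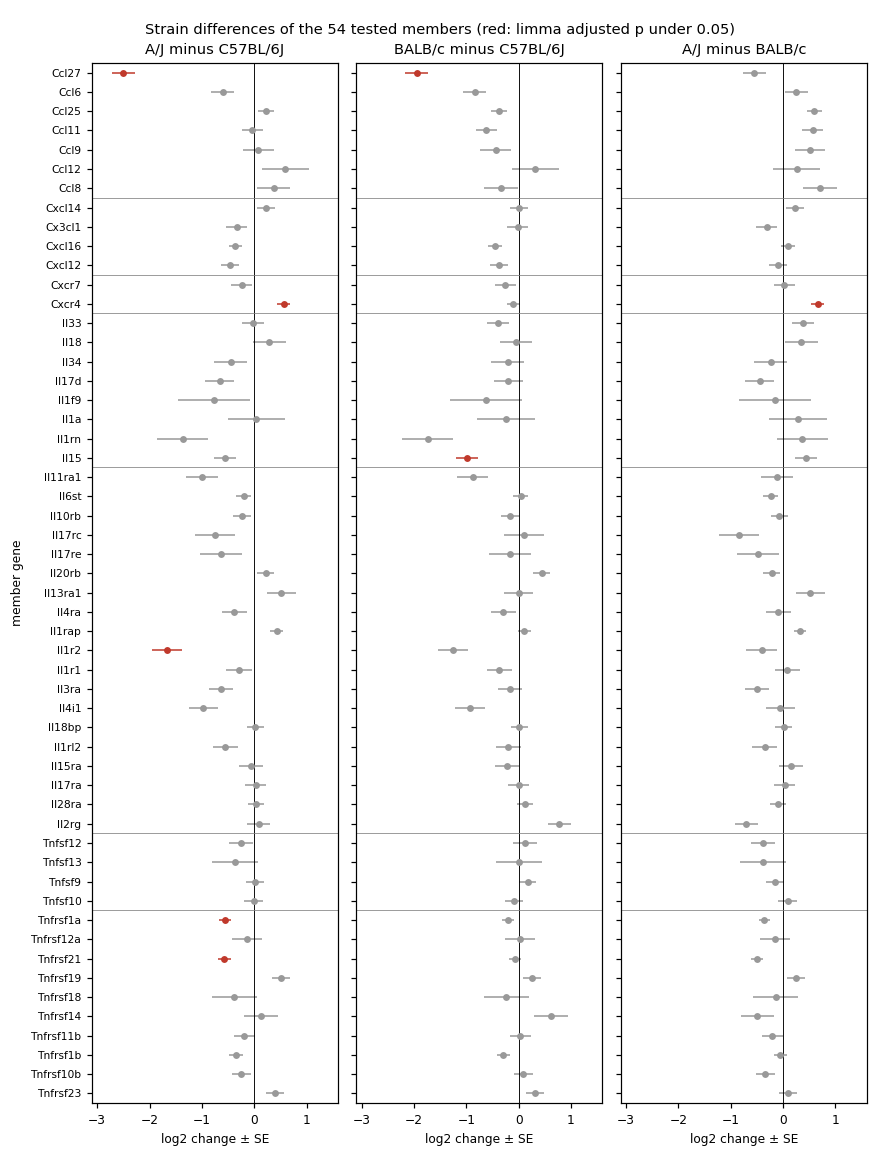
Log2 change ± SE of the 54 tested members in each of the 3 comparisons between strains, grouped by subfamily, with members at a limma adjusted p under 0.05 in red. Ccl27 lies farthest from 0, at -2.5 and -1.95 against C57BL/6J, and no red point is found among the TNF ligands or the CXC and CX3C chemokines.

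The promoters of called members are shown because these genes differ between strains at the RNA level. Each is the stretch of 250 bases before an annotated start in RefSeq (build GRCm38.p6, another build than the mm9 named by the submitters), 5′ to 3′ on the gene's strand. Capitals mark matches, on either strand, to any of 4 motifs, which are the STAT-type palindrome TTCNNNGAA, the TATA box letters TATAAA, the GC box letters CCGCCC and the AP-1 type letters TGANTCA. Ccl27a, the current name of Ccl27, has 3 listed starts, of which the pair that held a match is printed.
Ccl27a, chr4:41774102-41774351 (- strand): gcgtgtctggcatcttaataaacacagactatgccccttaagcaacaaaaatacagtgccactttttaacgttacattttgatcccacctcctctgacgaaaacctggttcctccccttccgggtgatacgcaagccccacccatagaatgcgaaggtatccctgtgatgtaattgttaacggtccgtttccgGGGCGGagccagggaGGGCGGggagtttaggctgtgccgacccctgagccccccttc
Ccl27a, chr4:41770213-41770462 (- strand): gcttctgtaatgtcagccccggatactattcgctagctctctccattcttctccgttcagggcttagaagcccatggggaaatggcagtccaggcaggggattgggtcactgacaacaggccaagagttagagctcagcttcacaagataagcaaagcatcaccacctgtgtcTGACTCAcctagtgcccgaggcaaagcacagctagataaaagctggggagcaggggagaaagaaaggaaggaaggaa
Il1r2, chr1:40085843-40086092 (+ strand): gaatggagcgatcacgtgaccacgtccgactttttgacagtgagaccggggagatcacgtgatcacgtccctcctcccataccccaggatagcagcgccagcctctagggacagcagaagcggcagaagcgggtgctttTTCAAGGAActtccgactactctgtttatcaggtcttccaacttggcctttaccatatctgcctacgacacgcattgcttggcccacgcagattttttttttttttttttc
Cxcr4, chr1:128592300-128592549 (- strand): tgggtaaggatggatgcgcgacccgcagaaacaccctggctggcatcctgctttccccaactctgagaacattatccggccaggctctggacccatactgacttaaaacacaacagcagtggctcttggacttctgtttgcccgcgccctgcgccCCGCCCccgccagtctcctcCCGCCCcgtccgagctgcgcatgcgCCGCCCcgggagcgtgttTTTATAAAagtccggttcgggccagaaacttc
Tnfrsf1a, chr6:125349473-125349722 (+ strand): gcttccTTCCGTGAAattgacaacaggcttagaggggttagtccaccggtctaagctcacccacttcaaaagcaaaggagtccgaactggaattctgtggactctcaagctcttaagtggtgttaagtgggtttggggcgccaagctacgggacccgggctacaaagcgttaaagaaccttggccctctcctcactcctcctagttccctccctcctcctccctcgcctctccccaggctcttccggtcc
Tnfrsf21, chr17:43016305-43016554 (+ strand): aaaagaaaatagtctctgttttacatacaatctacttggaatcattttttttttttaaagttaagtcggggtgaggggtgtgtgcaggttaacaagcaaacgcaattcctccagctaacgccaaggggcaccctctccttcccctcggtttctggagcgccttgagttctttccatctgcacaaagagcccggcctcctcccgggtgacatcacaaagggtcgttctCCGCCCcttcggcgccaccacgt
Il15 is named only. Il1r2 and Tnfrsf1a each held 1 STAT-type palindrome, 111 and 244 bases before the start, a motif held by 7.02% of the 32851 promoters of the table. Cxcr4 held 3 GC boxes and 2 overlapping TATAAA matches, one on either strand, against 32.7% and 12.4% of promoters with at least 1 match. Tnfrsf21 held 1 GC box, 23 bases before the start, and Ccl27a held 2 before the second start and 1 AP-1 type site, 77 bases before the third start (6.75% of promoters). Matches are descriptions of these letters and not evidence of binding.

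Among CC chemokines, Ccl27 fell in both albino strains relative to C57BL/6J. CCL27 is made by epithelium, foremost the keratinocytes of skin, and attracts T cells that bear the receptor Ccr10. Ccl27 was at 1.15, 1.53 and 0.88 RPKM in A/J, at 1.41, 2.12 and 2.1 RPKM in BALB/c, and at 12.31, 7.77 and 9.29 RPKM in C57BL/6J. Every C57BL/6J library was above every A/J and BALB/c library, and A/J and BALB/c overlapped. The log2 change was -2.5 (SE 0.22, adjusted p = 0.000397), or 5.67-fold lower, in A/J minus C57BL/6J and -1.95 (SE 0.22, adjusted p = 0.00163), or 3.86-fold lower, in BALB/c minus C57BL/6J. Both calls held under all 20 alternatives tried, with log2 changes from -2.84 to -2.2 and from -2.15 to -1.76. In A/J minus BALB/c it was -0.55 (adjusted p = 0.211). The level of Ccl27 is uncertain, because 57% of the 31-base words of its transcripts occur in other annotated genes, foremost Gm20878, Gm13306, Ccl27b and Gm21586. How the authors counted reads that match several copies is not given in the sources used here, and the part of shared sequence in the difference was not tested.

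The other 6 CC chemokines were not called in any comparison. Ccl6, a chemokine of mouse myeloid cells, was at 2.5, 3.21 and 1.79 RPKM for A/J, 2.36, 1.89 and 1.49 RPKM for BALB/c and 4.89, 3.8 and 4.15 RPKM for C57BL/6J. Libraries of neither albino strain overlapped those of C57BL/6J, with log2 changes of -0.6 in A/J (adjusted p = 0.225) and -0.84 in BALB/c (adjusted p = 0.0849). Ccl25, the ligand of the receptor Ccr9, was lowest in BALB/c, at 2.99 ± 0.245 RPKM for A/J, 1.74 ± 0.291 for BALB/c and 2.68 ± 0.182 for C57BL/6J, and its A/J and BALB/c libraries did not overlap (log2 change 0.6, adjusted p = 0.0879). The eosinophil attractant Ccl11 was likewise lower in every BALB/c library (1.13 to 1.68 RPKM) than in any A/J (1.96 to 3.34) or C57BL/6J library (2.51 to 2.99), with an adjusted p of 0.181 against A/J and 0.193 in BALB/c minus C57BL/6J. Ccl8, a monocyte attractant, averaged 1.09 ± 0.592 RPKM in A/J and 0.41 ± 0.0819 RPKM in BALB/c (log2 change 0.71, adjusted p = 0.242), and 0.803 ± 0.516 RPKM in C57BL/6J. Ccl8 reached a mean of 1 RPKM in A/J alone, so its listing rests on that strain. Ccl9 and Ccl12, chemokines of mouse monocytes and macrophages, averaged 1.39 and 1.24 RPKM over all libraries. The subfamily's summed RPKM was 9.6 to 17 for A/J, 8.62 to 10.3 for BALB/c and 19.6 to 27.7 for C57BL/6J, the last including Ccl27.

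CXC and CX3C chemokines were the more abundant chemokines, and none of the 4 was called. At an unadjusted p under 0.05 there were 2 in A/J and 1 in BALB/c against C57BL/6J (17.5% and 13.8% of all genes). There were 0 in A/J minus BALB/c (20.9% of all genes). Cxcl14, a chemokine made constitutively by epithelia, was at 28.6 ± 1.38 RPKM for A/J, 23.3 ± 1.97 for BALB/c and 26.5 ± 4.63 for C57BL/6J. Cx3cl1, membrane-bound fractalkine, was at 14.86, 15.58 and 25.06 RPKM for A/J, 18.66, 23.35 and 22.37 RPKM for BALB/c and 20.83, 26.34 and 27.15 RPKM for C57BL/6J. Within A/J it was low in libraries 1 and 2 alone, and without A/J 3 it was called lower than in C57BL/6J. Cxcl16, a transmembrane chemokine, was lower in every A/J (7.39 to 7.96 RPKM) and BALB/c library (6.37 to 7.68) than in any C57BL/6J library (8.88 to 11.83), with log2 changes of -0.36 and -0.45 (adjusted p = 0.232 and 0.142). Cxcl12, the ligand of the receptor encoded by Cxcr4, was at 4.5 ± 0.958 RPKM for A/J, 4.59 ± 0.238 for BALB/c and 6.92 ± 1.12 for C57BL/6J, with adjusted p of 0.226 for A/J and 0.395 for BALB/c against C57BL/6J. In deposited RPKM neither albino strain overlapped C57BL/6J, but after scaling A/J 3 (5.482) stood above C57BL/6J 1 (5.419).

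Of the chemokine receptors, Cxcr4 was higher in A/J than in either other strain. CXCR4 binds CXCL12 and guides leukocytes, endothelial cells and developing neurons. Cxcr4 was at 2.16, 2.2 and 2.18 RPKM for A/J, 1.24, 1.2 and 0.99 RPKM for BALB/c and 1.35, 1.44 and 1.47 RPKM for C57BL/6J. All A/J libraries were above all others. The log2 change was 0.56 (SE 0.12, adjusted p = 0.0499) in A/J minus C57BL/6J and 0.66 (SE 0.12, adjusted p = 0.0256) in A/J minus BALB/c, a 1.48-fold and a 1.58-fold difference. The first call stood at the threshold, held under 5 of 20 alternatives and was lost in the omission of each library but A/J 3 (adjusted p up to 0.2), and it was lost after correction for GC content (log2 change 0.41, adjusted p = 0.125). The second held under 13 of 20 and was lost when any BALB/c library or A/J 1 or A/J 2 was left out (adjusted p up to 0.167), and likewise after GC correction (log2 change 0.48, adjusted p = 0.0771). Cxcr7, which encodes a scavenger receptor of the same ligand, was not called, at 10.9 ± 1.66 RPKM for A/J, 10.3 ± 1.3 for BALB/c and 14.3 ± 3.82 for C57BL/6J.

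**Figure D3:**
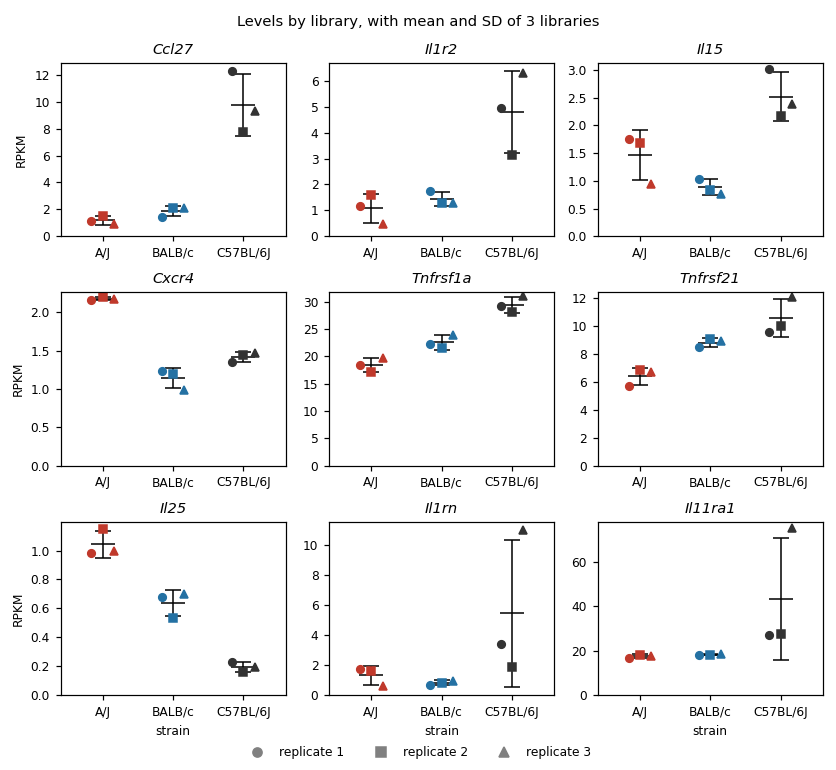
RPKM of 9 selected members in every library of the 3 strains, with marker shapes for replicates 1 to 3, a bar at the mean of 3 libraries and whiskers of 1 SD. Ccl27, Il1r2 and Il15 are highest in all C57BL/6J libraries, Cxcr4 and Il25 in all A/J libraries, and the high C57BL/6J mean of Il11ra1 comes from replicate 3, at 75.09 RPKM.

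Among interleukins, Il15 was lower in BALB/c than in C57BL/6J. Interleukin 15 sustains natural killer cells and memory CD8+ T cells. Il15 was at 1.75, 1.69 and 0.95 RPKM for A/J, 1.04, 0.84 and 0.76 RPKM for BALB/c and 3.01, 2.16 and 2.38 RPKM for C57BL/6J. All C57BL/6J libraries were above all others. In BALB/c minus C57BL/6J the log2 change was -0.99 (SE 0.21, adjusted p = 0.0385), a 1.99-fold difference, and in A/J minus C57BL/6J it was -0.55 (adjusted p = 0.241). The call held under 12 of 20 alternatives and was lost in every omission of 1 library except that of A/J 3 (adjusted p up to 0.189), with log2 changes from -1.07 to -0.87. The receptor chain Il15ra, which presents interleukin 15 to other cells, was at 1.33 ± 0.569 RPKM for A/J, 1.07 ± 0.255 for BALB/c and 1.5 ± 0.368 for C57BL/6J and was not called.

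The abundant interleukins were not called. Il33, an alarmin held in nuclei of epithelial and glial cells, was at 21.8 ± 4.85 RPKM for A/J, 15.7 ± 1.03 for BALB/c and 24.2 ± 6.87 for C57BL/6J, and Il18, a cytokine activated by the inflammasome, was at 19.1 ± 7.38, 13.5 ± 1.67 and 16 ± 3.27 RPKM in these strains. Il34, a ligand of the receptor encoded by Csf1r, was at 3.29, 2.47 and 6.42 RPKM for A/J, 3.64, 4.74 and 4.66 RPKM for BALB/c and 4.13, 5.22 and 8.68 RPKM for C57BL/6J. Il17d, a member of the interleukin 17 family, averaged 3.46 ± 1.77 RPKM for A/J, 4.42 ± 0.712 for BALB/c and 5.88 ± 1.27 for C57BL/6J. Il1a and Il1f9, alarmins of the interleukin-1 family made by keratinocytes, followed single libraries rather than strains. Il1a was at 5.66, 4.9 and 1.17 RPKM for A/J, 2.31, 2.31 and 2.98 RPKM for BALB/c and 7.39, 2.3 and 2.29 RPKM for C57BL/6J, and Il1f9 at 4.33, 4.11 and 0.52 RPKM for A/J, 3.35, 2.2 and 2.15 RPKM for BALB/c and 12.23, 3.14 and 2.5 RPKM for C57BL/6J. Both were high in A/J 1, A/J 2 and C57BL/6J 1. The neutrophil and epithelial gene S100a9 was at 5.79, 6.18 and 0.81 RPKM for A/J, 1.33, 1.22 and 1.19 RPKM for BALB/c and 13.15, 3.62 and 4.74 RPKM for C57BL/6J, and its part in these levels was not tested.

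Il1r2 and Il1rn, which both restrain interleukin 1, were at their highest in C57BL/6J. Il1r2 encodes a decoy receptor that binds interleukin 1 without signalling. Il1r2 was at 1.15, 1.61 and 0.49 RPKM for A/J, 1.75, 1.3 and 1.29 RPKM for BALB/c and 4.95, 3.15 and 6.32 RPKM for C57BL/6J. No A/J or BALB/c library reached the lowest C57BL/6J library. It fell in A/J relative to C57BL/6J (a log2 change of -1.67, SE 0.29, adjusted p = 0.0175), a 3.18-fold difference, and was not called in BALB/c (log2 change -1.26, SE 0.29, adjusted p = 0.0583). The call in A/J held under 16 of 20 alternatives, was lost when A/J 1 or either of C57BL/6J 1 and 3 was left out (highest adjusted p 0.0651) and in a fit of these 2 strains alone (adjusted p = 0.0955), and held after GC correction (log2 change -1.73, adjusted p = 0.00818). Il1rn, the secreted antagonist of the interleukin-1 receptor, was at 1.73, 1.56 and 0.59 RPKM for A/J, 0.62, 0.82 and 0.94 RPKM for BALB/c and 3.41, 1.86 and 11.06 RPKM for C57BL/6J. Its libraries did not overlap those of C57BL/6J in either strain, but it was not called (log2 change -1.37, adjusted p = 0.216 in A/J and -1.74, adjusted p = 0.114 in BALB/c), and C57BL/6J 3 was far above C57BL/6J 1 and 2.

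Some keratin genes of the ocular surface, chosen after their values were seen, were highest in C57BL/6J as Il1r2, Il1rn and Ccl27 were, and others were not. The keratin gene Krt15 was at 46.22, 56.33 and 48.63 RPKM for A/J, 155.78, 120.15 and 133.93 RPKM for BALB/c and 483.6, 311.08 and 953.56 RPKM for C57BL/6J. Krt13 was at 31.8 ± 1.58 RPKM for A/J, 67.5 ± 5.35 for BALB/c and 239 ± 92.6 for C57BL/6J, and Krt4 at 7.76 ± 2.05, 11.3 ± 0.713 and 60.8 ± 31.3 RPKM. Krt12 was at 2730 ± 434 RPKM for A/J, 2500 ± 238 for BALB/c and 1930 ± 433 for C57BL/6J, Krt5 at 865 ± 87.6, 1100 ± 144 and 1020 ± 212 RPKM, and Krt14 at 57.5 ± 2.01, 36.6 ± 3.34 and 75.9 ± 30.6 RPKM. The summed RPKM of the whole list of 19 surface epithelium genes, all of them listed, overlapped between the strains: it was 5817.56 to 6875.64 for A/J, 6202.75 to 7433.95 for BALB/c and 5111.17 to 8282.5 for C57BL/6J. Abundant genes weigh most in this sum (in A/J 1, Krt12 was 2935.44 and Krt5 879.4 of 6778.51 RPKM), so it cannot show differences of the lower genes. After scaling, 6 of its 19 genes in A/J and 7 in BALB/c lay below all C57BL/6J libraries, against 7.93% and 11.7% of all genes. In A/J 1 and in BALB/c 3 of the 19 lay above them, against 8.47% and 13.4% of all genes. The part of surface epithelium in these differences was not tested.

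The remaining receptors of the interleukin-1 family were not called. The signalling receptor Il1r1 was at 2.11 ± 0.186 RPKM for A/J, 1.88 ± 0.168 for BALB/c and 3.13 ± 1.69 for C57BL/6J, the last with 5.08 RPKM in C57BL/6J 3 and 2.32 and 2 in the others. Il1rap, the accessory chain shared by receptors of this family, was at 3.23, 3.05 and 2.76 RPKM for A/J, 2.23, 2.14 and 2.26 RPKM for BALB/c and 2.26, 2.22 and 2.33 RPKM for C57BL/6J, with all A/J libraries above all others (log2 change 0.43, adjusted p = 0.124 against C57BL/6J, and 0.32, adjusted p = 0.2 against BALB/c). Il1rl2 averaged 0.98 ± 0.214 RPKM for A/J, 1.32 ± 0.179 for BALB/c and 1.92 ± 1.01 for C57BL/6J. Il18bp, a secreted binder of interleukin 18, differed little in mean, at 1.8 ± 0.345, 1.68 ± 0.14 and 1.91 ± 0.37 RPKM in that order of strains (A/J, BALB/c, C57BL/6J).

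Il11ra1, the most abundant interleukin receptor gene, was at 16.58, 18.19 and 17.71 RPKM for A/J, 18.03, 18.07 and 18.41 RPKM for BALB/c and 27.18, 27.25 and 75.09 RPKM for C57BL/6J. In deposited RPKM the albino strains lay together and below every C57BL/6J library. After scaling, Il11ra1 was lower in all A/J libraries (17.07 to 18.5) than in all BALB/c libraries (19.06 to 19.46). It was not called (log2 change -1, SE 0.3, adjusted p = 0.152 in A/J and -0.88, SE 0.3, adjusted p = 0.209 in BALB/c), and without C57BL/6J 3 it was called lower in A/J. In the RefSeq annotation Il11ra1 is the direct neighbour of Ccl27a, and 57.7% of its 31-base words occur in other genes, foremost Gm13305 and Il11ra2, so its level is uncertain in the same way.

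Shared signalling chains were not called in any comparison. Il6st, which encodes gp130, was at 15.5 ± 2.48 RPKM for A/J, 17.4 ± 1.41 for BALB/c and 19.2 ± 1.3 for C57BL/6J. Il10rb, a shared chain of the interleukin 10 receptor family, was at 12.8 ± 1.08, 12.8 ± 1.66 and 16.4 ± 2.18 RPKM in these strains. The common gamma chain Il2rg stood higher in BALB/c, at 0.68, 1.31 and 0.53 RPKM for A/J, 1.42, 1.4 and 1.8 RPKM for BALB/c and 0.62, 0.86 and 0.89 RPKM for C57BL/6J. It was not called (log2 change -0.7, adjusted p = 0.15 in A/J minus BALB/c and 0.78, adjusted p = 0.11 in BALB/c minus C57BL/6J), and 28.7% of its 31-base words are shared with Gm20489. Il2rg reached a mean of 1 RPKM in BALB/c alone, so its listing rests on the strain in which it stood higher. Il4i1, an enzyme that oxidises amino acids, was at 1.18 ± 0.564 RPKM for A/J, 1.13 ± 0.241 for BALB/c and 3.06 ± 1.41 for C57BL/6J, without overlap with C57BL/6J (log2 change -0.97, adjusted p = 0.13 in A/J and -0.93, adjusted p = 0.142 in BALB/c). The interleukin 3 receptor chain Il3ra had A/J libraries (0.82 to 1.89 RPKM) below all C57BL/6J libraries (2.05 to 2.94), with an adjusted p of 0.219.

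The interleukin 17 receptor chains Il17rc and Il17re varied between libraries of A/J and of C57BL/6J. Il17rc was at 3.8, 2.93 and 9.77 RPKM for A/J, 7.49, 9 and 9.7 RPKM for BALB/c and 6.8, 7.8 and 14.24 RPKM for C57BL/6J, and Il17re at 3.69, 2.98 and 6.41 RPKM for A/J, 5.14, 6.33 and 5.67 RPKM for BALB/c and 5.08, 4.63 and 16.19 RPKM for C57BL/6J. A/J 1 and A/J 2 were the lowest of all libraries for both genes, and neither was called. Il17ra, Il28ra, Il4ra, Il13ra1 and Il20rb, the ligand-binding or partner chains of further receptors, were not called either, with means over 9 libraries of 1.27, 1.19, 2.75, 3.85 and 5.24 RPKM.

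TNF superfamily ligands held no called member by limma, with 0 also at an unadjusted p under 0.05 (13.8% to 20.9% of all genes). Their libraries overlapped in every comparison in deposited RPKM. After scaling, Tnfsf12 lay lower in all A/J than in all BALB/c libraries. Tnfsf12 was at 46.7 ± 9.1 RPKM for A/J, 57.4 ± 1.14 for BALB/c and 60.9 ± 16 for C57BL/6J, with log2 changes between -0.38 and 0.12. Tnfsf13, which encodes the B cell factor APRIL, was at 5.3, 5.9 and 9.32 RPKM for A/J, 8.28, 7.65 and 9.31 RPKM for BALB/c and 5.04, 6.88 and 23.47 RPKM for C57BL/6J. These genes share 47.4% and 58.4% of their 31-base words with the annotated read-through gene Tnfsfm13, so reads cannot be divided between them with certainty. Tnfsf10, the death ligand TRAIL, and the costimulatory ligand Tnfsf9 averaged 1.73 and 1.87 RPKM over all libraries.

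Among TNF receptors, Tnfrsf1a and Tnfrsf21, which both carry a death domain, were lower in A/J than in C57BL/6J. Tnfrsf1a encodes the main signalling receptor of TNF. Tnfrsf1a was at 18.36, 17.07 and 19.63 RPKM for A/J, 22.21, 21.46 and 24.02 RPKM for BALB/c and 29.21, 28.14 and 31.04 RPKM for C57BL/6J. The libraries fell in 3 separate ranges, A/J lowest and C57BL/6J highest. The log2 change was -0.56 (SE 0.11, adjusted p = 0.0306) in A/J minus C57BL/6J, -0.2 (SE 0.11, adjusted p = 0.492) in BALB/c minus C57BL/6J and -0.36 (SE 0.11, adjusted p = 0.148) in A/J minus BALB/c. The call held under 9 of 20 alternatives. It was lost in every omission of 1 library except those of A/J 3 and C57BL/6J 3 (highest adjusted p 0.136), and the change after GC correction was -0.35 (adjusted p = 0.185).

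Tnfrsf21 encodes a death receptor found on neurons and oligodendrocyte precursors. Tnfrsf21 was at 5.7, 6.82 and 6.68 RPKM for A/J, 8.48, 9.05 and 8.91 RPKM for BALB/c and 9.54, 10.02 and 12.09 RPKM for C57BL/6J. All A/J libraries were below all others. BALB/c and C57BL/6J were separate in deposited RPKM but overlapped after scaling, at 8.962 to 9.717 for BALB/c and 9.15 to 10.44 for C57BL/6J. The log2 change was -0.57 (SE 0.12, adjusted p = 0.0428) in A/J minus C57BL/6J, -0.07 (SE 0.12, adjusted p = 0.888) in BALB/c minus C57BL/6J and -0.5 (SE 0.12, adjusted p = 0.0736) in A/J minus BALB/c. The call held under 9 of 20 alternatives, GC correction included (log2 change -0.5, adjusted p = 0.0264), and was lost in every omission of 1 library except that of A/J 3 (adjusted p up to 0.223).

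The other TNF receptors were not called. Tnfrsf12a, the receptor of TWEAK, was at 10.3 ± 1.98 RPKM for A/J, 10.9 ± 1.19 for BALB/c and 13.4 ± 7.7 for C57BL/6J, the last from 22.25 RPKM in C57BL/6J 3 and 8.94 and 8.9 in the others. Tnfrsf1b, the second TNF receptor, carried mainly by leukocytes and endothelium, was at 1.33, 1.03 and 1.19 RPKM for A/J, 1.31, 1.16 and 1.09 RPKM for BALB/c and 1.65, 1.81 and 1.83 RPKM for C57BL/6J. Both albino strains lay below every C57BL/6J library (log2 change -0.35, adjusted p = 0.243 in A/J and -0.29, adjusted p = 0.376 in BALB/c). Tnfrsf19 ran the other way in mean, at 6.94 ± 0.836 RPKM for A/J, 5.48 ± 0.181 for BALB/c and 5.22 ± 1.56 for C57BL/6J. The costimulatory receptors Tnfrsf18 and Tnfrsf14 averaged 2.28 and 1.63 RPKM, the secreted decoy Tnfrsf11b (osteoprotegerin) 1.38 RPKM and the mouse TRAIL receptor Tnfrsf10b 1.02 RPKM. Tnfrsf23, a mouse decoy receptor of TRAIL, averaged 0.957 RPKM and shares 26.7% of its 31-base words, foremost with Tnfrsf22.

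Of the 3 members under the level required for testing, Il25 separated the strains. Il25, an interleukin of epithelial tuft cells that drives type 2 immunity, was at 0.98, 1.15 and 1 RPKM for A/J, 0.68, 0.53 and 0.7 RPKM for BALB/c and 0.23, 0.16 and 0.19 RPKM for C57BL/6J. The libraries fell in 3 separate ranges, A/J highest. When all listed genes were tested, Il25 was higher in A/J (log2 change 1.19, SE 0.14, adjusted p = 0.00155) and in BALB/c (log2 change 0.79, SE 0.14, adjusted p = 0.0148) than in C57BL/6J, and its change in A/J minus BALB/c was 0.41 (adjusted p = 0.169). Tnfrsf4, a costimulatory receptor of activated T cells, was at 0.56, 0.25 and 0.4 RPKM for A/J, 0.37, 0.49 and 0.49 RPKM for BALB/c and 0.86, 1.2 and 2.02 RPKM for C57BL/6J, and was not called in that test (adjusted p = 0.0644 in A/J and 0.0998 in BALB/c, each against C57BL/6J). Il1f5, an antagonist in the interleukin-1 family, was at 0.62 ± 0.249 RPKM for A/J, 0.48 ± 0.14 for BALB/c and 1.44 ± 0.587 for C57BL/6J, with overlap between A/J and C57BL/6J and adjusted p of 0.22 and 0.14 against C57BL/6J. Listing appears to have required a mean of about 1 RPKM in a strain, which Il25 reached in A/J alone (1.04 RPKM). Its listing thus rests on its high A/J level, and its adjusted p-values for A/J are no independent support for that level. Tnfrsf4 and Il1f5 reached a mean of 1 RPKM in C57BL/6J alone, so their listing rests on that strain in the same way. At levels near 1 RPKM and with unknown depth, the precision of these values cannot be stated.

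In deposited RPKM, members varied more between libraries of A/J and of C57BL/6J than between those of BALB/c. The same spread over all genes was not computed, so it cannot be called particular to the members. The median ratio of a member's highest to its lowest library was 1.69 for A/J, 1.28 for BALB/c and 1.63 for C57BL/6J, and it exceeded 2 for 21, 1 and 19 members. In C57BL/6J, replicate 3 was the highest library in deposited RPKM for 33 of 57 members and for 16 of the 19 with a ratio over 2. Its size factor was 1.158, against 1.043 and 1.002 for replicates 1 and 2, so scaling lowers its values relative to theirs. In A/J, the 10 members with a ratio over 2 that were lowest in A/J 3 had a transcript GC content of 41.2% to 49% (median 43.4%), and included Il1a, Il1f9, Il1rn, Il18 and Il13ra1. The 11 that were lowest in A/J 1 or A/J 2 had a GC content of 47.6% to 62% (median 56.1%), and included Il17rc, Il17re, Il34, Il17d and Tnfrsf14. The median over all members was 49.6%.

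**Figure D4:**
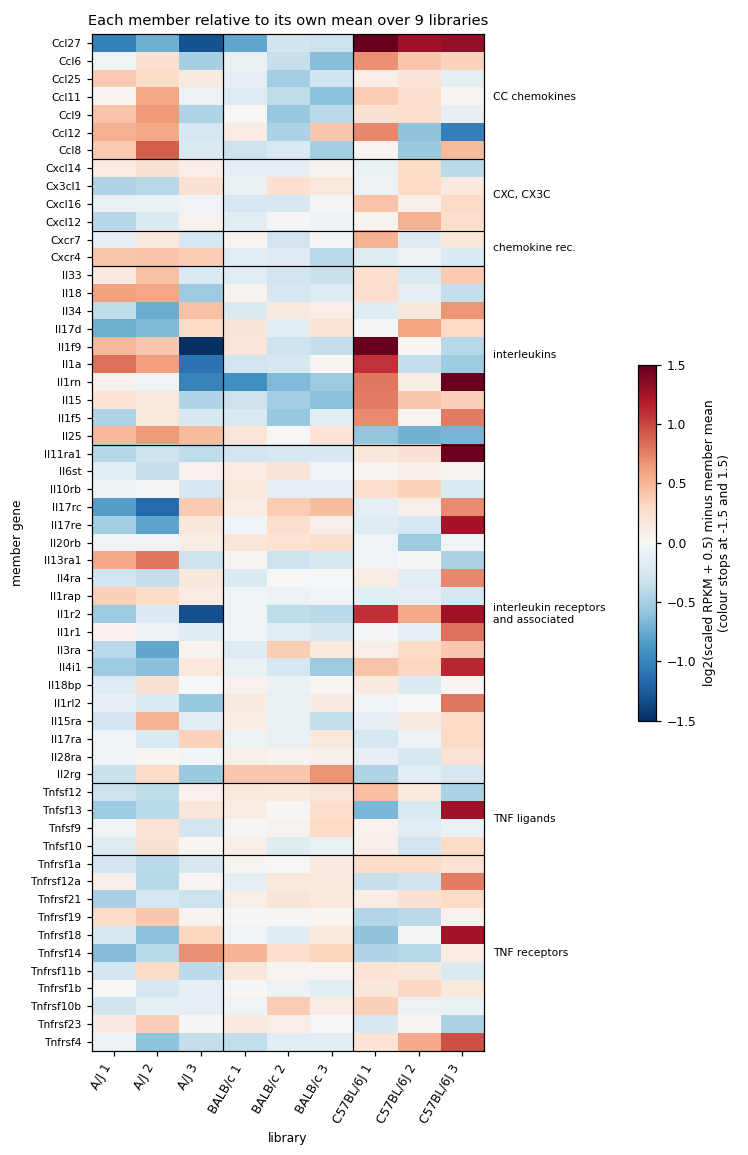
Colour map of the 57 members (rows, by subfamily) in 9 libraries (columns), as log2(scaled RPKM + 0.5) minus the member's mean, with colours limited to -1.5 and 1.5. The row of Ccl27 changes colour between C57BL/6J and both other strains, Il1a and Il1f9 are red in A/J 1, A/J 2 and C57BL/6J 1 and deep blue in A/J 3, and the BALB/c columns are mostly pale.

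Calls among genes of the downstream signalling pathways came in A/J minus BALB/c, where 2.48% of all genes were called and 20.9% were under an unadjusted p of 0.05 (17.5% in A/J and 13.8% in BALB/c, each against C57BL/6J). For single genes, the alternatives were examined for members only, so whether the calls of these pathway genes hold under them is unknown. Of 24 tested genes of JAK-STAT signalling and its inhibitors, none was called in A/J or BALB/c against C57BL/6J, and 1 was lower in A/J than it was in BALB/c (4.17%). At an unadjusted p under 0.05 there were 3 in A/J (12.5%) and 2 in BALB/c (8.33%) against C57BL/6J, and 6 (25%) in A/J minus BALB/c. The called gene was Socs1, an inhibitor of JAK kinases, at 0.97 ± 0.335 RPKM for A/J, 2.13 ± 0.38 for BALB/c and 1.76 ± 0.331 for C57BL/6J (log2 change -0.91, SE 0.19, adjusted p = 0.0444 in A/J minus BALB/c). Of 22 tested genes of NF-kB signalling, none was called against C57BL/6J (3 in A/J, 13.6%, and 1 in BALB/c, 4.55%, at an unadjusted p under 0.05), and A/J had 1 lower than BALB/c (5 at an unadjusted p under 0.05, or 22.7%). It was Bcl3, a nuclear partner of NF-kB subunits, at 1.96, 1.89 and 1.83 RPKM for A/J, 2.85, 3.81 and 4.01 RPKM for BALB/c and 3.04, 3.47 and 3.79 RPKM for C57BL/6J (log2 change -0.81, SE 0.15, adjusted p = 0.0237). Of 21 tested receptor adaptors and TNF receptor signalling genes, none was called against C57BL/6J (3 in A/J, 14.3%, and 0 in BALB/c at an unadjusted p under 0.05), and again A/J had 1 lower than BALB/c (3 at an unadjusted p under 0.05, or 14.3%). It was Irak4, the kinase that relays signals of interleukin-1 receptors, at 1.35, 1.42 and 1.19 RPKM for A/J, 2.15, 2.95 and 2.66 RPKM for BALB/c and 2.68, 2.38 and 2.57 RPKM for C57BL/6J (log2 change -0.82, SE 0.15, adjusted p = 0.0197 in A/J minus BALB/c, and -0.65, adjusted p = 0.0519 in A/J minus C57BL/6J).

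Of 31 tested cytokine genes and receptors outside the symbol rule, 1 was called, in 2 comparisons. That is 3.23% of the list, against 3.09% of all genes in BALB/c minus C57BL/6J and 2.48% in A/J minus BALB/c. At an unadjusted p under 0.05 there were 10 (32.3%, against 17.5% of all genes) in A/J minus C57BL/6J, 5 (16.1%, against 13.8%) in BALB/c minus C57BL/6J and 4 (12.9%, against 20.9%) in A/J minus BALB/c. Mif, which encodes macrophage migration inhibitory factor, was at 38.69, 44.87 and 50.63 RPKM for A/J, 140.21, 165.15 and 165.81 RPKM for BALB/c and 53.5, 57.4 and 76.45 RPKM for C57BL/6J. All BALB/c libraries were far above all others, with a log2 change of 1.51 (SE 0.15, adjusted p = 0.00063) in BALB/c minus C57BL/6J and -1.87 (SE 0.15, adjusted p = 0.00031) in A/J minus BALB/c. Mif shares 39.1% of its 31-base words with other annotated loci, foremost Gm10169 and Gm16379, so its level is uncertain. The calls of Mif were not examined under the alternatives either. None of the 5 tested atypical chemokine receptors and related genes was called (at most 1 in a comparison at an unadjusted p under 0.05). The median log2 changes of these 5 lists lay between -0.21 and 0.23 in all 3 comparisons.

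Markers of cells that make or answer to these factors also differed between strains. The 19 listed of 22 microglia and macrophage markers summed to 188.01 to 225.46 RPKM for A/J, 172.07 to 198.94 for BALB/c and 241.94 to 282.87 for C57BL/6J, although Csf1r was at 8.28 to 11.74 RPKM and Cx3cr1 at 1.56 to 2.24 RPKM in all 9 libraries. After scaling the sums were 186.7 to 231.86 for A/J, 184.82 to 210.3 for BALB/c and 212.39 to 271.21 for C57BL/6J. Abundant genes weigh most in such sums. Of the 19 genes, 5 in A/J and 8 in BALB/c then lay below all C57BL/6J libraries, against 7.93% and 11.7% of all genes. In either strain 1 lay above them, against 8.47% and 13.4% of all genes. The 12 listed of 13 vascular endothelium markers summed to 79.65 to 85.8 RPKM for A/J, 96.45 to 99.02 for BALB/c and 112.15 to 182.12 for C57BL/6J, and both albino strains stayed below C57BL/6J after scaling. Of lymphocyte markers, 2 of 17 for T and NK cells and 2 of 11 for B and plasma cells were listed, and of neutrophil markers 2 of 11, with sums of 3.07 to 10.6 RPKM for A/J, 1.87 to 2.13 for BALB/c and 4.74 to 17.08 for C57BL/6J. Some other lists were not highest in C57BL/6J on the scaled values. After scaling, 15 lens genes summed to 202837.46 to 222045.59 for A/J, 269304.8 to 276605.43 for BALB/c and 113137.14 to 200456.32 for C57BL/6J. The 11 listed rod genes summed to 13663.54 to 14038.14, 15916.05 to 16833.98 and 14994.4 to 15722.09 in that order of strains. The B and plasma cell sums were 65.97 to 70.58, 84.79 to 108.86 and 58.35 to 64.99. In deposited RPKM the rod sums were 13431.26 to 14136.41, 15056.58 to 15879.07 and 15268.07 to 17363.52. Those of T and NK cells were 62.34 to 75.74, 72.82 to 76.58 and 76.37 to 79.15. On that scale both lists thus reached their highest sum in C57BL/6J. The microglial sum of A/J lay below every C57BL/6J library in deposited RPKM and overlapped C57BL/6J after scaling, whereas that of BALB/c was below on both scales. The part of these cells in the levels of Il1r2, Tnfrsf1a and Tnfrsf1b was not tested.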

How the data were processed

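Poly(A) RNA of whole eyes was measured in 9 libraries. The build mm9 and the tools CASAVA 1.7 and GenomeStudio are named per the submitters' processing notes. The counting rule is not given in the sources used here. As deposited by the authors, there was 1 value per gene and library, taken here as RPKM because value times longest GENCODE M21 transcript length came to 108.5% to 111.7% of the total that RPKM gives, and 126.6% in C57BL/6J 3. A search for whole reads found at most 28.6% of low values within 0.1 of a whole number, so reads were not recovered. The smallest highest strain mean was 0.997 RPKM, so the tables appear to list genes that reached about 1 RPKM in a strain.

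Size factors from the median of ratios (0.931 to 1.158) scaled the RPKM, and log2 was taken after adding 0.5. Genes at 1 RPKM or more in at least 3 libraries entered limma 3.58.1 (R 4.3.3; strain as the only term, trended prior, robust, all 9 libraries), two-sided, with Benjamini-Hochberg adjustment over all 12920 genes. The procedure was tested on simulated data, drawn as independent normal noise around each gene's mean. These lacked the GC trends of the real libraries, so that test cannot show how such trends affect the calls. Transcript length and GC content were found for 98.2% of genes, and shared sequence was the share of 31-base words of a gene's transcripts found in another annotated gene, flagged from 20%.

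Members and lists were chosen with earlier results of these data known. Named by rule were called members, the 3 highest by mean of each subfamily, the 3 largest uncalled changes without overlap per comparison, untested members, members with shared sequence, and called genes of the pathway lists. The other members, the keratins, S100a9, Csf1r and Cx3cr1 were named after their values were seen. The alternatives were other scalings, pseudocounts and filters, a replicate block, GC correction, another variance model, single strain pairs, and omission of 1 or 2 libraries.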

Additional observations from a re-analysis of the deposited data

How the results depend on the processing

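No called member changed sign under any alternative. Members called in A/J minus C57BL/6J (5) numbered 3 with the replicate block (5.56%, against 3.14% of all genes) and 20 without A/J 3 and C57BL/6J 3. They numbered 1 (Ccl27) in a fit of A/J and C57BL/6J alone (1.85%, against 1.09%), and 1 to 16 when 1 library was left out, with 16 reached without A/J 3. Those in BALB/c minus C57BL/6J (2) numbered 4 with values as deposited (7.41%, against 2.95% of all genes). After GC correction they numbered 5 (9.26%, against 4.43%), with Ccl6, Il1r2 and Il4i1 added. There were 15 without A/J 3 and C57BL/6J 3, 4 in a fit of BALB/c and C57BL/6J alone (7.41%, against 3.07%), and 1 to 4 when 1 library was left out. In A/J minus BALB/c (1) there were 0 after GC correction (against 3.51% of all genes), 26 without A/J 3 and C57BL/6J 3, and 0 to 16 when 1 library was left out. The F test (5) gave 3 with quantile normalization (5.56%, against 4.16% of all genes) and 3 with the replicate block (5.56%, against 4.67%). It gave 34 without A/J 3 and C57BL/6J 3, and 1 to 23 when 1 library was left out. The background moved too. Without A/J 3, 29.6% of members and 28.3% of all genes were called in A/J minus C57BL/6J, and without A/J 3 and C57BL/6J 3, 37% of members and 39.7% of all genes. Without that pair of libraries it was 27.8% against 14.9% in BALB/c minus C57BL/6J and 48.1% against 59.9% in A/J minus BALB/c, and in the F test 63% against 61.8% (42.6% against 33.1% without A/J 3). The causes were not tested. Scaling, an alternative chosen after seeing the data, moved members without overlap to 4 higher in BALB/c than in C57BL/6J (1 in deposited RPKM) and to 9 with all A/J libraries below all BALB/c libraries (4 in deposited RPKM). A fit without A/J 1 and A/J 2 was among the alternatives, and in it the lone A/J library was assumed to vary like the other strains. With values as deposited the median of all genes shifted to -0.11 in A/J minus C57BL/6J and -0.17 in BALB/c minus C57BL/6J, and changes are read relative to it. Replicate numbers did not pair the libraries in every case. In their deviations, same-numbered libraries correlated at 0.34 to 0.54 for replicate 1, -0.51 to 0.02 for replicate 2 and 0.09 to 0.47 for replicate 3. A shared batch of replicates 1 or 3 was not tested. The replicate block changed members called in A/J minus C57BL/6J from 5 to 3, while all genes called went from 348 to 406. With the block, 3 members were called in BALB/c minus C57BL/6J and 1 in A/J minus BALB/c. With every listed gene tested, Il25 was added and Cxcr4 was lost in A/J minus C57BL/6J. The unknown depth and levels near 1 RPKM limit 23 members with means under 2 RPKM.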
